A study of Homo sapiens with 6 samples.

Results

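The genes described here encode the machinery that licenses, copies and repairs DNA, together with the cyclins, kinases, inhibitors, RB family proteins and E2F factors that control entry into S phase. They were taken by gene symbol from a pair of deposited lists, one named for high and one for low expression, with a fixed name pattern that covers families such as MCM, ORC, RFC, POL, GINS, E2F, CDK, FANC, RAD, XRCC and MSH. The pattern found 80 genes among 8942 listed symbols, with 75 listed as high and 5 as low. The lists come from a study of SiHa, an established line of papillomavirus-positive squamous carcinoma of the cervix, in which cells that had crossed a transwell membrane within 10 hours of seeding were compared with cells that had not. RNA was sequenced from 3 libraries of the migrated and 3 of the non-migrated fraction, in 3 paired sets, and the labels name no genetic change or drug for either fraction. SiHa is a single line, scraped cells were pooled, and no label tells whether each set was a separate culture.

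Before S phase, the origin recognition complex and its partners load the MCM2 to MCM7 helicase onto origins, and at the G1/S boundary cyclin-dependent kinases activate it with GINS and CDC45. Unphosphorylated RB family proteins hold E2F factors in check until cyclin D with CDK4 or CDK6, and then cyclin E or A with CDK2, release them. E2F factors then drive many genes of replication and repair. In cervical cancer lines with papillomavirus the viral E7 protein binds the RB family, and CDKN2A is a well known marker of such tumours.

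No value per library can be given for any of these genes. The deposited expression table holds 26006 loci under assembly IDs alone, 0 of which is a listed symbol, and the 6 libraries behind it held 18226280 to 33466924 assigned fragments. The lists carry a symbol and an hg19 position and have a number in the value field of 0 rows. The sources used here give neither the rule of selection nor the libraries it drew on, so the lists were read by their names, as level, and not as a change between fractions. Standing on neither list is not shown to mean an intermediate level. Of 11 epithelial markers, KRT8, KRT17, KRT18 and SFN were high and the basal keratin KRT5 low, with TP63, EPCAM and CDH1 among the 6 on neither list. Of 12 markers of leukocytes, endothelium and fibroblasts, 0 were high and PTPRC, CD3D, CD2, KDR and COL1A2 were low.

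Set against all protein coding genes, the group leaned to the high list but was far from complete on it. RefSeq holds 150 protein coding genes whose symbols match the pattern, and 75 of them (50.0%) were high, 5 (3.33%) low and 70 (46.7%) on neither list. Over all 20052 protein coding RefSeq genes, 22.4% were high and 18.9% low. Among listed symbols of every kind, 50.6% were high, against 93.8% of the 80 listed here. Kinesin, tubulin, centromere and mitotic kinase names, counted the same way, gave 47 of 118 high (39.8%) and 4 low (3.39%). These shares are descriptions of the lists, and no test was made of them. The high share was greatest in replication, at 28 of 39 genes (71.8%). It was 14 of 32 (43.8%) in G1/S control and 19 of 49 (38.8%) in repair.

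**Figure D1:**
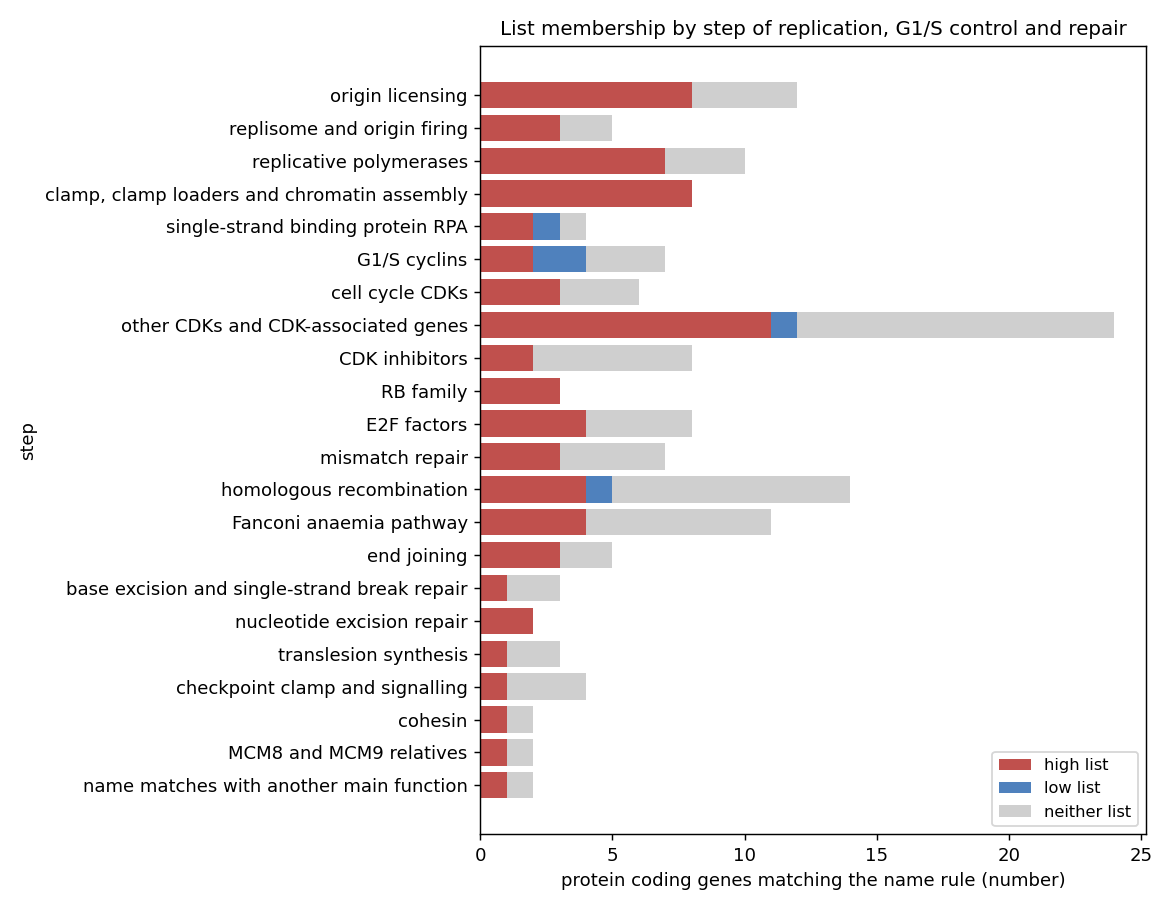
Number of protein coding genes matching the name pattern (horizontal axis) at each step (vertical axis), split by list membership. Bars without a grey part, such as the 8 genes of the clamp, its loaders and chromatin assembly, are steps whose genes were all on the high list.

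Since E2F factors act on promoters, the promoters with the most E2F-type matches among these genes are shown first. RefSeq promoter windows of build GRCh38.p14, which run from 250 bases before to 50 after a gene start, were searched on both strands for the E2F-type forms TTTCCCGC, TTTCGCGC, TTTGGCGC and TTTGCCGC, and overlapping matches were merged into 1 site. Windows with 2 sites were found in MCM3, MCM6, MCM7, RBL1 and E2F1, all high, and in FANCC, which was on neither list. The 5 high ones are given as the 200 bases before the start, 5′ to 3′ on the gene's strand, with the matches in capitals. A match on the opposite strand reads as its reverse complement, and the second MCM3 site runs on past the start. E2F1 was added after its values were seen.

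MCM3, chr6:52284743-52284942, minus strand: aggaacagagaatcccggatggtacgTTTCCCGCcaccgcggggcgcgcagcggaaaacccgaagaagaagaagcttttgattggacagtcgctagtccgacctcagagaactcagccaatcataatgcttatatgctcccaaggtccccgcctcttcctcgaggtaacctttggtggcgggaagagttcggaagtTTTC

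MCM6, chr2:135876444-135876643, minus strand: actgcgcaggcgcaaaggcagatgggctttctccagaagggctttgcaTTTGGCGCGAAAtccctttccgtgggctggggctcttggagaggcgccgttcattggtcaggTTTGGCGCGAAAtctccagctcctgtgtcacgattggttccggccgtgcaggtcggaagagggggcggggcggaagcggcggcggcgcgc

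MCM7, chr7:100101398-100101597, minus strand: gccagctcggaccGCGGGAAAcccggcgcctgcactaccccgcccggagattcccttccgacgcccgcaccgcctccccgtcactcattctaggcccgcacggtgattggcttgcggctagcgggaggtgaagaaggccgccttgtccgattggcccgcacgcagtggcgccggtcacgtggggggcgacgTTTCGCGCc

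RBL1, chr20:37095998-37096197, minus strand: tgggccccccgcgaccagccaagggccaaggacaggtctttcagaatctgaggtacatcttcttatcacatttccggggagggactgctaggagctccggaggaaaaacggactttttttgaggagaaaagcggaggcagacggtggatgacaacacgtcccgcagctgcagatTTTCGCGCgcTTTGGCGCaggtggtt

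E2F1, chr20:33686386-33686585, minus strand: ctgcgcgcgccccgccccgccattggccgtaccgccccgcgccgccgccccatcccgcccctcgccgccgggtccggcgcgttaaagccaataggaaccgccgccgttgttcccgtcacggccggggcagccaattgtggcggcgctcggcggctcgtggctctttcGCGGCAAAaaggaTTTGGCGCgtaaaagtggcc

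MCM6 carried 2 sites of 12 bases, at positions -152 to -141 and -90 to -79 relative to its start, each read as a match on both strands, with the same 12 letters in capitals. The E2F1 sites lay at -33 to -26 and -20 to -13, and those of RBL1 at -26 to -19 and -16 to -9, close to the start in both. In MCM3 and MCM7, a site near the start, beginning at -4 and -9, was joined by one at -174 and -187.

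Of the 75 high genes, 64 had a window in the table. Among those without one were CDK2, FANCI, MCM4, MCM5, POLD3, RAD21, RPA2 and XRCC5. A gene can have several windows that overlap. An E2F-type form stood in 23 of the 90 windows of the high genes (25.6%), in 10 of 80 windows of unlisted genes of the same pattern (12.5%) and in 0 of 5 windows of CCNA1, CDK15 and RAD51AP2, the low genes with a window. The share was 6.05% of 5556 windows of other protein coding genes on the high list, 3.69% of those on neither list, 1.92% of those on the low list, and 3.31% of all 35116 windows. Other pathway genes outside the name pattern, described at the end, gave 18 of 85 windows when high (21.2%) and 7 of 66 when unlisted (10.6%). Counted by gene, a match stood in 34.4% of the high genes, 16.7% of unlisted genes of the pattern and 8.44% of other high genes. Over all genes with a window the share was 3.99%. Genes with a match were 11 of 24 high replication genes with a window (45.8%), 4 of 13 in G1/S control (30.8%) and 5 of 14 in repair (35.7%), with 0 of 4 in homologous recombination. They included 4 of 6 licensing genes, MCM2, MCM3, MCM6 and MCM7, and 2 of 3 genes of the replisome and origin firing, GINS2 and GINS3. Of the polymerase genes 3 of 6 had a match, POLA1, POLA2 and POLE. The clamp, its loaders and chromatin assembly gave 2 of 8, PCNA and RFC3. In G1/S control the genes with a match were CDK1, RBL1, E2F1 and E2F3, and in repair MSH6, FANCA, FANCD2, XRCC6 and LIG1. CDK10, 1 of 11 high genes among the other CDKs and CDK-associated genes, and MCM8 completed the 22. The block shares cover high genes only. Of the 10 unlisted genes of the pattern with a match, ORC3, GINS1, POLE2 and POLE4 belong to replication. The other unlisted replication genes with a window, ORC2, ORC4, ORC5 and POLD4, had no match. Within replication the matches were thus not fewer among unlisted genes than among high ones. Of 28 sites in the high genes, 16 began within the 100 bases before the start, 7 lay farther upstream and 5 began after it. Median GC content was 64.0% in windows of the high genes, 65.7% in the unlisted genes of the pattern and 65.7% in other high genes. It was lower in the other backgrounds, at 62.7% in other unlisted genes, 53.0% in other low genes and 58.7% over all windows. The 5 windows of the low genes of the pattern had a median of 44.7%. Any part of GC content in the match shares was not tested.

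Other letters known from cell cycle promoters were counted in the same windows. The form GGCGGGAA, which can overlap TTTCCCGC read on the other strand, stood in 17.8% of the windows of the high genes, 8.75% of the unlisted ones and 5.44% of other high genes. CCAAT, the NF-Y box, stood in 44.4%, 37.5% and 34.9%, and in 34.6% of all windows. Of the 5 windows of the low genes of the pattern, CCAAT stood in 4 and GGCGGGAA in 0. In the pathway genes outside the name pattern the order of high and unlisted genes was the reverse, with CCAAT in 44.7% of windows of high and 53.0% of unlisted genes. The forms TTTGAA or TTCGAA, known from genes of late cell cycle phases, stood in 8.89%, 8.75% and 11.7%, against 16.4% of all windows. In the pathway genes outside the name pattern they stood in 17.6% of windows of high and 16.7% of unlisted genes. A match is a description of letters and not a bound site.

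**Figure D2:**
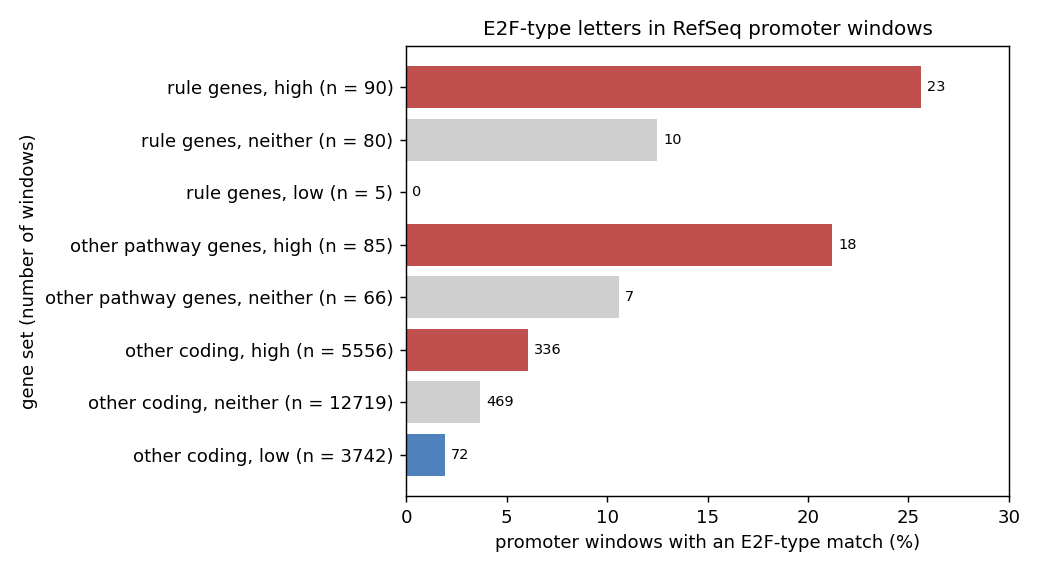
Share of RefSeq promoter windows with an E2F-type form (horizontal axis, %) by gene set and list (vertical axis), with the number of windows in brackets and the number with a match at each bar. The windows of the high genes of the name pattern reach 25.6%, against 6.05% for other protein coding genes on the high list.

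Origin licensing genes were split between a complete helicase and an incomplete loader. All 6 subunits of the MCM2 to MCM7 helicase were on the high list, from MCM2 (hg19 chromosome 3, 127317066 to 127341276, plus strand) to MCM7 on chromosome 7. Of the origin recognition complex, which marks origins, ORC1 (chromosome 1, 52838501 to 52870131, minus strand) and ORC6 were high and ORC2, ORC3, ORC4 and ORC5 on neither list. The GINS complex, which joins the helicase at firing, gave GINS2 (chromosome 16, 85709804 to 85722605, minus strand) and GINS3 high and GINS1 and GINS4 on neither list. MCM10, a replisome scaffold needed for firing, was high.

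Among polymerases, the catalytic subunits POLA1 (chromosome X, 24712036 to 25015103, plus strand), POLD1 and POLE were each high. POLA1 starts new strands with primase, POLD1 copies mostly the lagging and POLE mostly the leading strand. Their partners POLA2, POLD2, POLD3 and POLE3 were also high, while the accessory subunits POLD4, POLE2 and POLE4 were on neither list. The sliding clamp PCNA (chromosome 20, 5095599 to 5107272, minus strand), all 5 subunits of its loader, RFC1 to RFC5, and the CAF-1 subunits CHAF1A and CHAF1B, which place histones behind the fork, were high. RPA, which coats single-stranded DNA, gave its large and middle subunits RPA1 (chromosome 17, 1733266 to 1802848, plus strand) and RPA2 high and the small subunit RPA3 on neither list.

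**Figure D3:**
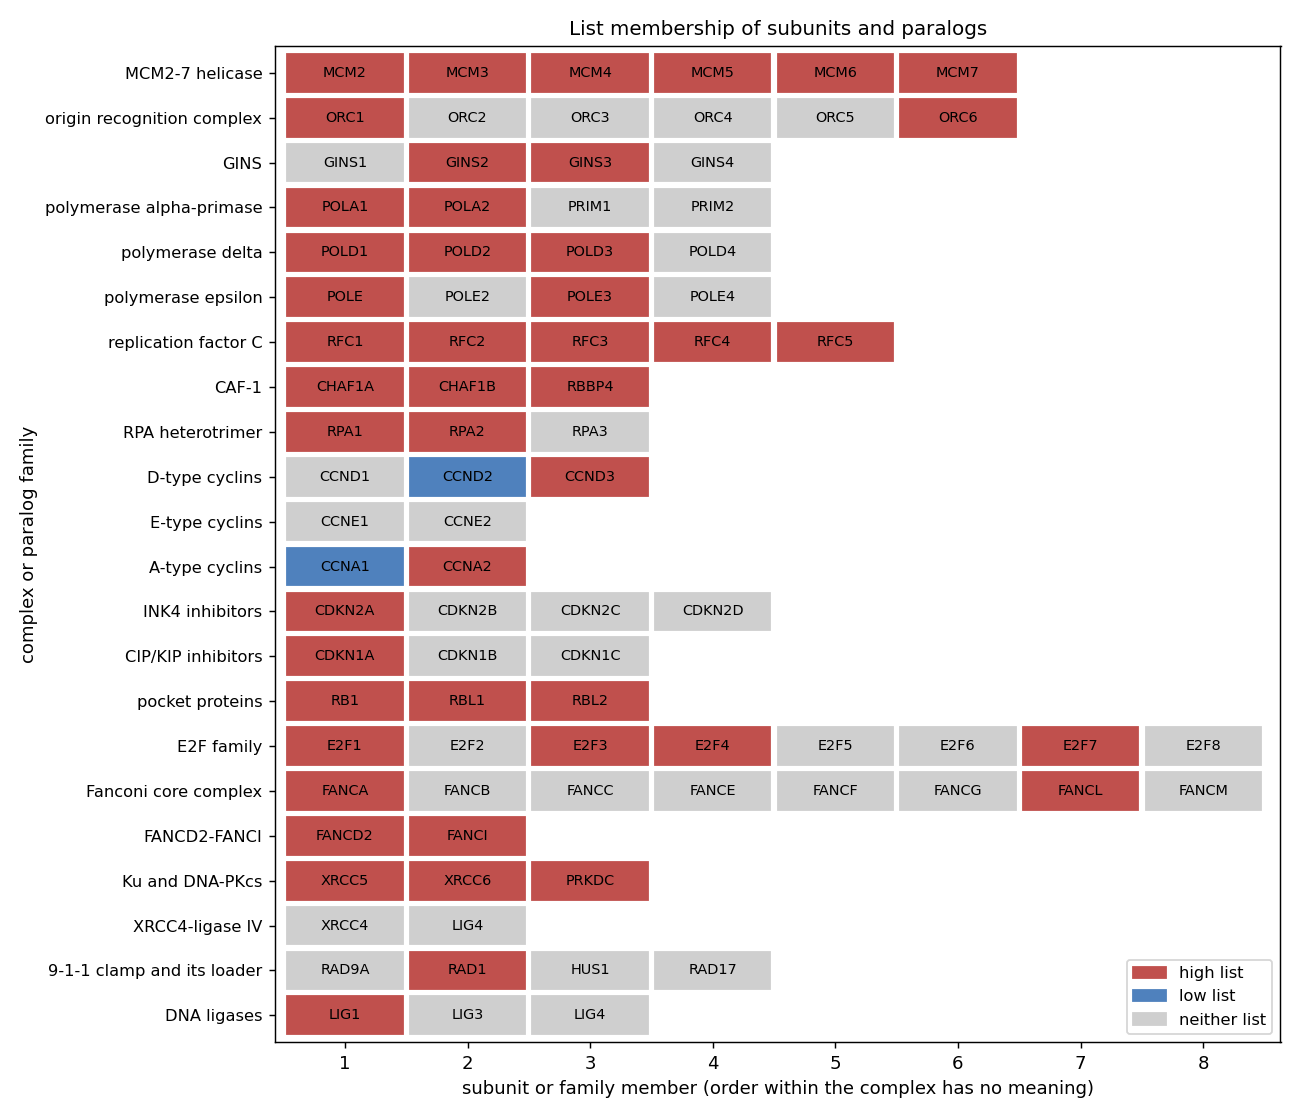
Each tile is 1 gene of a complex or paralog family (rows), coloured by list, and the horizontal axis only numbers the tiles. Complete rows of high tiles are the MCM2 to MCM7 helicase, replication factor C, CAF-1, the pocket proteins, FANCD2 with FANCI, and Ku with DNA-PKcs; the low tiles are CCND2 and CCNA1.

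Among genes acting at the G1/S boundary, the D-type and A-type cyclins had members on both lists. Of the D-type cyclins, which start RB phosphorylation, CCND3 (chromosome 6, 41902671 to 42018095, minus strand) was high, CCND2 low and CCND1 on neither list. Of their kinases, CDK4 was high and CDK6 on neither list. CCNE1 and CCNE2, the E-type cyclins, were on neither list, while their partner CDK2 was high. CCNA2, the cyclin A of dividing somatic cells, and CDK1 (chromosome 10, 62538089 to 62554610, plus strand), the kinase that drives mitosis, were high. CDK3 and CDK7, the CDK-activating kinase, were on neither list.

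Among inhibitors of these kinases, CDKN1A (chromosome 6, 36645588 to 36655116, plus strand), which encodes an inhibitor of CDK2 complexes, and CDKN2A (chromosome 9, 21967751 to 21994490, minus strand), which encodes p16 and ARF, were high. The other 6 of 8, CDKN1B, CDKN1C, CDKN2B, CDKN2C, CDKN2D and CDKN3, were on neither list, which leaves CDKN2A as 1 listed gene of 4 INK4 genes. With 22.4% of all protein coding genes on the high list, these counts are not read as a lean of the inhibitors. All 3 RB family genes were high: RB1 (chromosome 13, 48877883 to 49056122, plus strand), RBL1 and RBL2. Of 8 E2F genes, the activators E2F1 (chromosome 20, 32263489 to 32274210, minus strand) and E2F3, the pocket protein partner E2F4 and the repressor E2F7 were high. Each had a close relative on neither list, E2F2, E2F5 and E2F8, as was E2F6.

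The pattern also takes in kinases and kinase partners with other main roles. Of these 24 genes 11 were high, beside 22.4% of all protein coding genes. Among the 11 were CDK9 (chromosome 9, 130547958 to 130553066, plus strand), CDK12 and CDK13, which phosphorylate RNA polymerase II. CDK15 was low and 12 were on neither list, among them the mediator kinases CDK8 and CDK19 and the neuronal kinase CDK5. MCM3AP, an mRNA export factor caught by its name, was high, and RAD54L2, a chromatin remodeller, on neither list.

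In mismatch repair, MSH6, a subunit of a mismatch sensor, was high. MSH3 and MLH3, and MSH4 and MSH5, which act in meiosis, were on neither list. The end joining factors XRCC5 (chromosome 2, 216972187 to 217071026, plus strand) and XRCC6, which form the Ku ring, were high together with POLQ, the polymerase of an alternative pathway. XRCC4 and LIG4, which seal the break, were on neither list. Of the DNA ligases, LIG1 (chromosome 19, 48618703 to 48673601, minus strand), which joins Okazaki fragments, was high, and LIG3 and its partner XRCC1 were on neither list.

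Homologous recombination had 4 high and 1 low gene of 14, and the Fanconi anaemia pathway 4 high of 11. With 22.4% of all protein coding genes on the high list, neither count is read as a lean of its step. BRCA1 (chromosome 17, 41196312 to 41322290, minus strand), RAD50 of the end-resecting complex, RAD51AP1 and XRCC3 were high. BRCA2, RAD51B, RAD51C, RAD51D, XRCC2, RAD52, RAD54B and RAD54L, which also act in recombination, were on neither list. In the Fanconi anaemia pathway of crosslink repair, FANCD2 and FANCI, which are ubiquitinated as a pair, were both high. Of the 8 genes of the core complex that does this, FANCL, the ubiquitin ligase, and FANCA (chromosome 16, 89803959 to 89883065, minus strand) were high and the other 6 on neither list.

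In nucleotide excision repair, RAD23B, a partner of the damage sensor XPC, was high. RAD18 (chromosome 3, 8817088 to 9005457, minus strand), which ubiquitinates PCNA, was high and the bypass polymerases POLH and POLK on neither list. RAD1 (chromosome 5, 34905369 to 34919094, minus strand) of the checkpoint clamp was high, with RAD9A, HUS1 and the loader gene RAD17 on neither list. RAD21, a cohesin subunit, and MCM8, a helicase of recombination, were high, and their relatives RAD21L1 and MCM9 on neither list.

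Each of the 5 low genes had a relative, by family or by name, on the high list. The pattern picks genes by family name and 50.0% of its 150 genes were high, so this is not read as a trait of the low genes. CCNA1, a cyclin A known mainly from the testis (chromosome 13, 37005967 to 37017019, plus strand), stood opposite CCNA2. CCND2 (chromosome 12, 4382938 to 4414516, plus strand) stood opposite CCND3. RPA4, a relative of RPA2 (chromosome X, 96138907 to 96140446, plus strand), stood opposite RPA2, and RAD51AP2 (chromosome 2, 17691851 to 17699706, minus strand) shares its name with the high gene RAD51AP1. CDK15 (chromosome 2, 202655184 to 202760273, plus strand) stood opposite its closest relative CDK14, whose 744 kb span was the longest of the 80 genes. The 1540 bases of RPA4 lie wholly within DIAPH2 on the same strand, also on the low list.

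Median spans lay close to those of all genes on the same list. The high genes spanned a median of 33.7 kb, from 3.44 kb for POLE3 to 744 kb for CDK14, against 33.2 kb over all high symbols. The 5 low genes spanned 1.54 to 105 kb, with a median of 11.1 kb against 10.9 kb over all low rows. High genes lay on 22 chromosomes, with at most 7 on one, and chromosome 16 held CDK10, E2F4, FANCA, GINS2, GINS3, ORC6 and RBL2. Of the 80 genes, 13 overlapped another listed gene, 12 of them one on the opposite strand, and the sources used here do not tell whether the counting used strand. Overlaps were not counted over all listed genes, so the 13 are not read as many or few. The longest overlap was 59945 bases, between POLE and GOLGA3, and the shortest 21 bases, between RFC4 and EIF4A2. POLE also shared 36221 bases with ANKLE2. Both GOLGA3 and ANKLE2 were high and on the same strand as POLE. MSH6 and FBXO11, on opposite strands, shared 17632 bases.

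In other protein coding genes the share on the high list was greater among longer transcripts, so the genes were also set side by side within classes of length. The longest coding transcript in GENCODE release 29 had a median of 3517 bases in the 75 high and 3003 in the 70 unlisted genes, against 3737 and 3037 in other protein coding genes. With the 150 genes cut by that length into 3 classes of 50, 50.0% of the shortest, 40.0% of the middle and 60.0% of the longest class were high. Other protein coding genes cut at the same lengths gave 16.3%, 24.4% and 31.4%. Their shortest and longest classes had no outer limit, whereas the 150 genes ran from 1055 to 11986 bases, so length was matched only loosely there.

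**Figure D4:**
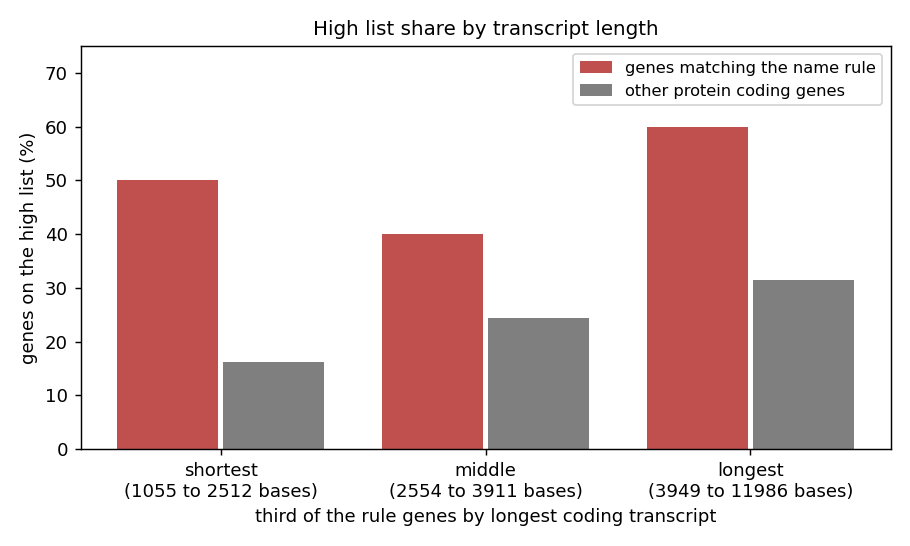
Share of genes on the high list (vertical axis, %) in each class of transcript length (horizontal axis, with the range of the 150 genes of the name pattern), for these genes and for other protein coding genes cut at the same lengths. In each class the former share is the greater. The shortest and longest classes of the other genes had no outer limit of length.

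Genes of the same pathways outside the name pattern were read from a list chosen by function. Of these 118, 63 (53.4%) were high, 0 low and 55 on neither list, beside 22.4% high and 18.9% low over all protein coding genes. Beside the helicase, the loaders CDC6 and CDT1 were high, and so were the firing factors CDC45, CDC7 and DBF4 and the checkpoint mediators TOPBP1, TIMELESS and CLSPN, while GMNN, TICRR, RECQL4 and TIPIN were on neither list. The primase subunits PRIM1 and PRIM2 were on neither list. Among genes of nucleotide supply, RRM1, RRM2, TYMS, TK1 and DUT were high and RRM2B, DCK and DTYMK on neither list. Both E2F partners, TFDP1 and TFDP2, were high. Base excision gave 5 of 15, including UNG and PARP1, and recombination gave NBN and RBBP8 of 6, with MRE11A, PALB2, BARD1 and BLM on neither list. The kinases ATM, ATR and CHEK1 were high and CHEK2 on neither list. Of the cohesin genes, the 4 looked up here, SMC1A, SMC3, STAG1 and STAG2, were high, as was RAD21.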

How the data were processed

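RNA was measured in 3 migrated and 3 non-migrated SiHa libraries. Build hg19 and the tools Cuffdiff, Cufflinks 2.2.1, TopHat2 and CASAVA 1.8.2 are recorded in the submitters' processing notes, with no settings. The deposited table gives, per the file headers, estimated counts of fragments for each locus in each library, and only library totals were used here, with 3 other value columns left out. Replicate indices were read as the label numbers in order. The authors' 2 lists hold 4531 and 4436 rows, and 4 symbols on both were left out.

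The members and lists were chosen with earlier results of these data known. Symbols were matched to RefSeq names, older ones included, for 97.7% of 8942 listed symbols, and 0 unlisted genes of the pattern were listed under an older symbol. The motif search was checked on made sequences with planted motifs, which checks the code and not the counts. Python 3.11.15 and pandas 2.3.3 were used. Genes of the pattern are named or counted by step, and some are not reported here by name. Positions are given for low genes, core subunits and extremes of span. No test between fractions was run, since loci have no names. Alternatives were other name matches, backgrounds, motif forms and windows.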

Additional observations from a re-analysis of the deposited data

How the results depend on the processing

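The share of listed genes on the high list, 93.8%, was 93.8% over rows or without non-coding names, 94.1% without the other CDKs and 93.1% with 21 genes added by older symbols. Some of these 21 are genes outside these pathways, such as MC1R, SLC19A1 and the added low genes MSX2 and RNASE6. The high share was 50.0% of all 150 protein coding genes of the pattern, a denominator chosen after seeing the data, as was counting promoter genes in place of windows. The background of 50.6% was 54.4% without OR, KRTAP, DEFB and LINC names and 54.1% over protein coding symbols. The E2F-type share of 25.6% was 15.6% with the forms TTTCGCGC and TTTGGCGC alone, 21.1% in the 150 bases nearest the start and 34.4% over genes. For all windows, 3.31% became 1.15%, 1.68% and 3.99% in the same order, and was 6.05% for other protein coding genes on the high list. The median span of listed high genes, 33.2 kb, was 33.3 kb for protein coding genes. No paired analysis was possible because no result here comes from a test between libraries, and a replicate block, other size factors and leaving out replicates were not run. The lists hold no values, so depth cannot be tied to any gene named here.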
